A study of Mus musculus with 12 samples.

Results

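Immediate early genes are the genes that neurons switch on within minutes of firing, without needing new protein. The 35 activity-induced immediate early genes of mouse described here were taken from a list of symbols: the AP-1 family (Fos, Fosb, Fosl2, Jun, Junb, Jund, Atf3, Maff), the EGR family (Egr1 to Egr4), the NR4A nuclear receptors (Nr4a1 to Nr4a3), other nuclear regulators (Npas4, Klf4, Klf6, Klf10, Csrnp1, Ier2, Ier5), genes acting at synapses or secreted (Arc, Homer1, Rgs2, Inhba), kinases, phosphatases and their brakes (Dusp1, Dusp5, Dusp6, Sik1, Pim1, Trib1) and growth arrest genes (Btg2, Gadd45b, Gadd45g). A row of the count table was assigned to each symbol through its RefSeq transcripts, and all 35 were found among the 23382 rows. All 35 also passed the filter on low counts, which kept 15802 genes.

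The libraries were made from total RNA of the hippocampus of mice on a C57BL/6 background, in 4 groups of 3: aDN-DISC1 mutant mice given delta-9-tetrahydrocannabinol (THC, the cannabinoid that gives cannabis most of its psychoactive effect), aDN-DISC1 mutant mice given vehicle, control mice given THC and control mice given vehicle. DISC1 encodes a scaffold protein whose disruption has been tied to mental illness, and the series title speaks of a vulnerability specific to astrocytes and of exposure in adolescence with effects on adult memory. Sample titles alone mark the controls, which carry no genotype entry. The promoter that drives the mutant allele, the THC dose, the interval between the last dose and tissue collection, and the age, sex and litter of the mice are not given in the sources used here. Mouse Disc1 stood at 1.42 to 3.04 CPM (counts scaled to a library of 1e+06) in the mutant THC libraries, 2.36 to 2.78 CPM in the mutant vehicle libraries, 2.42 to 2.58 CPM in the control THC libraries and 1.79 to 2.58 CPM in the control vehicle libraries, a row that does not check an allele added to the endogenous gene.

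In a neuron, calcium entry and growth signals activate kinases that phosphorylate factors already bound at these genes, CREB at cyclic AMP response elements and SRF with its partners at serum response elements. The first wave encodes transcription factors such as Fos, Egr1 and Npas4, which bind the promoters and enhancers of later genes, together with proteins that act at the synapse, such as Arc, and phosphatases that shut the kinases off, such as Dusp1. In the hippocampus these RNAs are widely used as a record of recent neuronal firing, and their levels follow novelty, handling and learning shortly before the tissue is taken.

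Promoters were examined because these factors act there. RefSeq promoter windows of GRCm38.p6, the assembly of mm10, were found for 28 of the 35 genes, and the 250 bases before the start of transcription were searched on both strands. Arc, Egr1, Egr3, Ier2, Klf10, Sik1 and Trib1 had no window and were not searched. Elements farther upstream than 250 bases lay outside the search, so a motif not found here may still be present in a gene. The full cyclic AMP response element (CRE), TGACGTCA, lay in the window of 3 of the 28 genes, 10.7%, against 1.77% of all 27025 genes in the table. Its core TGACG, which the full element also contains, lay in 18 of the 28, 64.3%, against 19.8% of all genes. The EGR motif GCGNGGGCG was present in 9 genes, 32.1%, against 5.33% of all genes, and the serum response element in Dusp5 and Egr2, 7.14%, against 1.62% of all genes. The AP-1 motif TGANTCA was found in 1 of the 28, 3.57%, against 7.82% of all genes, and the TATA box TATAAA in 5 of the 28, 17.9%, against 14.3%. These shares describe the letters of the promoters, not binding.

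The promoters of 4 genes are shown because their genes carry the results that follow: Fos, Npas4 and Ier5, like other members, had their highest group mean in the control vehicle libraries, and Egr2 was high in 1 library. Capitals mark the CRE core on either strand, the TATA box of Fos and the serum response element of Egr2. The windows are chr12:85473640-85473889 on the plus strand for Fos, chr19:4989972-4990221 on the minus strand for Npas4, chr1:155099637-155099886 on the minus strand for Ier5 and chr10:67537619-67537868 on the plus strand for Egr2, for which the window shown is 1 of 5 in the table.
Fos: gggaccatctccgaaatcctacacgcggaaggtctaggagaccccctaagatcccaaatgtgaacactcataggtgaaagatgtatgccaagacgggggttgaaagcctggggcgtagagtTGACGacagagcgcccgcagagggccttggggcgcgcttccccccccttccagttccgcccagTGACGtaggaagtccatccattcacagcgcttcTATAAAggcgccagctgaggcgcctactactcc
Npas4: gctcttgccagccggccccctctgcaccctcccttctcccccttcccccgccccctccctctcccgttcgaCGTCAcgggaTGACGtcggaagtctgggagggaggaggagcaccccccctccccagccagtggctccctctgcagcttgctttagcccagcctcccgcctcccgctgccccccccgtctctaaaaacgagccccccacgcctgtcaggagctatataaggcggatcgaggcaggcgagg
Ier5: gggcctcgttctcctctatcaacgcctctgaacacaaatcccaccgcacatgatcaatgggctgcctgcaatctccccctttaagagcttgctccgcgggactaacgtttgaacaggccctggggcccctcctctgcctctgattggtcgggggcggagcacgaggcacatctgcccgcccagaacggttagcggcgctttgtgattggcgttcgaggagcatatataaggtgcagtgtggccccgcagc
Egr2: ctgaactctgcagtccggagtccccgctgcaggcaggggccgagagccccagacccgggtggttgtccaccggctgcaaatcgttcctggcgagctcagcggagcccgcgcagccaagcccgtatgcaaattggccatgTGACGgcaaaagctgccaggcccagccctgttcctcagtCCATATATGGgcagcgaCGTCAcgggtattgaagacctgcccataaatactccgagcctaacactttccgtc
The Fos window holds the CRE core from -129 to -125 and again from -66 to -62, counted back from the start, and a TATA box from -33 to -28. The Npas4 window holds the core from -179 to -175 as CGTCA, its form on the opposite strand, and from -169 to -165 as TGACG. The Egr2 window holds a serum response element from -72 to -63, flanked by the core from -111 to -107 and from -55 to -51. No searched motif lay in the Ier5 window.

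Libraries held 33165903 to 41389957 counts. The members had 17 to 12202 counts per library, so counting error is small for all but the least abundant. Before the results, 2 libraries have to be named. Mutant THC replicate 3 held 4709 CPM summed over the 13 striatal neuron markers found in the table, and mutant vehicle replicate 3 held 599.2 CPM, against 176.9 to 208.2 CPM in the other 10. Drd2, the dopamine receptor of striatal neurons, was at 52.1 CPM in mutant THC replicate 3, at 4.57 CPM in mutant vehicle replicate 3 and at 1.62 CPM or less in the others. Hippocampal neuron markers were present in every library, at 654.6 to 1184 CPM summed in mutant THC, 853.1 to 1025 CPM in mutant vehicle, 1084 to 1269 CPM in control THC and 1002 to 1083 CPM in control vehicle, with the lowest sum in mutant THC replicate 3. Choroid plexus markers summed to 10448, 330.0 and 4973 CPM in mutant THC replicates 1 to 3. In control THC replicates 1 to 3 they summed to 339.2, 8881 and 330.0 CPM. They ranged from 6129 to 16893 CPM in mutant vehicle and from 323.7 to 406.9 CPM in control vehicle. The library numbers in the labels run from 6 to 11 for vehicle and take the remaining places for THC, so library order and treatment cannot be told apart. In RNA from whole tissue, fewer cells of a type and less RNA per cell cannot be told apart.

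Levels were compared between members per length, as CPM per kilobase of transcript averaged over the 12 libraries. Arc, which encodes the protein that forms RNA-carrying capsids and trims synaptic receptors, was the most abundant at 54.2 CPM per kilobase. Jund, the AP-1 subunit that most tissues make constantly, followed at 50.3, Homer1, a postsynaptic scaffold, at 41.0 and Junb at 40.1 CPM per kilobase. Egr1 stood at 10.6, Fos at 8.25 and Npas4, a factor found mainly in neurons and induced by calcium entry, at 1.88 CPM per kilobase. Lowest were Fosb at 0.763, Pim1 at 0.623 and Maff at 0.450 CPM per kilobase. The row of Homer1 sums several RefSeq transcripts, so the short activity-induced Homer1a is not separated from the long forms. The row of Fosb holds a single RefSeq transcript, and the truncated delta-FosB has no row of its own.

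The members varied unevenly over the 12 libraries. The ratio of the highest to the lowest of the 12 libraries ran from 1.19 for Jund to 4.80 for Klf4, with a median of 1.88, was within 1.5 for 9 members and exceeded 2 for 17.

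**Figure D1:**
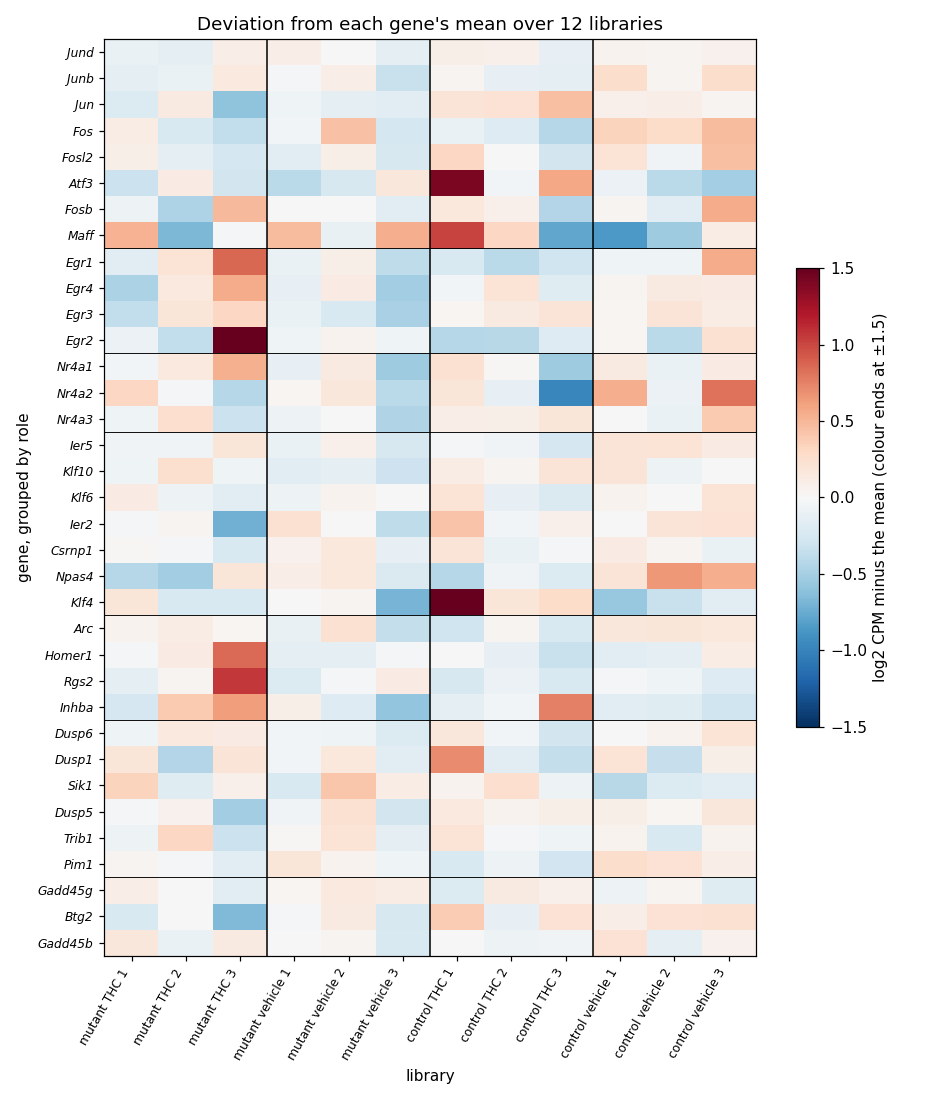
Each row is 1 of the 35 genes, grouped by role, and each column 1 of the 12 libraries. Colour gives the log2 CPM minus the mean of that gene over the 12 libraries, red above and blue below. Single dark red cells mark Egr2 and Rgs2 in mutant THC replicate 3 and Klf4 and Atf3 in control THC replicate 1.

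No member differed between groups at an adjusted p of 0.05 in any of the comparisons by edgeR's quasi-likelihood test, in which p-values were adjusted over all 15802 genes. Few genes of any kind did: 0% of all genes passed for THC in mutant mice, for THC in control mice and for the interaction, and 0.00633%, which is 1 gene, for the mutation under THC and under vehicle. The values below are therefore given with unadjusted p-values, read against the share of all genes that reach the same unadjusted threshold of 0.05. No p-value here was adjusted over the members alone.

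THC against vehicle in control mice gave the most members, 9 of 35 at an unadjusted p under 0.05 against 7% of all genes. Of these 7 were lower under THC (3.45% of all genes) and 2 were higher (3.55% of all genes). DESeq2 gave 8 and limma-voom 8, with 0 at an adjusted p of 0.05 by either. The 3 THC and the 3 vehicle libraries did not overlap for 11 members, 6 of them lower under THC (8.06% of all genes) and 5 higher (8.3% of all genes). Fitted log2 fold changes were below 0 for 21 of the 35, against 49.9% of all genes, and their median was -0.08, against 0.00 over all genes. Leaving out 1 library in turn gave medians from -0.12 (without control THC replicate 1) to -0.02 (without control THC replicate 3). Sums of other marker lists also separated these groups: the 8 neocortex markers found summed to 186.7 to 208.4 CPM in control THC, against 215.1 to 234.2 CPM in control vehicle, and the 8 astrocyte markers to 4999 to 5137 CPM, against 5577 to 5650 CPM. The 12 hippocampal neuron markers summed to 1084 to 1269 CPM in control THC, against 1002 to 1083 CPM in control vehicle. The part of these cell types in the members' values was not tested.

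Fos, the defining subunit of AP-1, had 15.9, 14.9 and 12.6 CPM in the control THC libraries, against 21.4, 20.5 and 23.6 CPM in the control vehicle libraries. Every THC library lay below every vehicle library. The log2 fold change was -0.60 ± 0.18 (SE, unadjusted p = 0.0062 and adjusted p = 0.70 by edgeR). Npas4 had 4.90, 6.36 and 5.72 CPM in control THC, against 7.56, 10.3 and 9.61 CPM in control vehicle. These groups did not overlap either, with a log2 fold change of -0.69 ± 0.20 (SE, unadjusted p = 0.0049, adjusted p = 0.70 by edgeR). Arc, the synaptic member, had 134, 169 and 141 CPM in control THC, against 185, 187 and 183.0 CPM in control vehicle. The vehicle libraries lay close together while the THC libraries were spread, and the log2 fold change was -0.32 ± 0.13 (SE, adjusted p = 0.70 by edgeR). Ier5, a regulator of the heat shock factor Hsf1, had 57.9, 56.4 and 49.2 CPM in control THC, against 66.9, 67.6 and 64.1 CPM in control vehicle, a log2 fold change of -0.28 ± 0.10 (SE, adjusted p = 0.70 by edgeR) with no overlap.

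Junb, a partner of Fos, had 74.5, 66.4 and 65.7 CPM in control THC, against 86.6, 74.0 and 86.2 CPM in control vehicle. Here the highest THC library lay above the lowest vehicle library, and the log2 fold change was -0.26 ± 0.12 (SE, adjusted p = 0.711 by edgeR). Egr1, a zinc finger factor needed for lasting synaptic change, had 26.7, 23.6 and 25.3 CPM in control THC, against 29.9, 29.9 and 45.8 CPM in control vehicle. Its groups did not overlap, but 1 vehicle library stood well above the other 2, and the log2 fold change of -0.48 ± 0.25 (SE) had an unadjusted p of 0.0811 (adjusted p = 0.737 by edgeR). Pim1, a survival kinase, was the other member lower at an unadjusted p under 0.05 with no overlap, and Nr4a2 passed that mark with overlapping groups. Without control THC replicate 3, the lowest of the 12 libraries for Fos, Nr4a2 and Ier5 among others, 5 members reached an unadjusted p under 0.05 in place of 9, of which Fos and Npas4 were lower and Maff, Klf4 and Atf3 higher, against 4.25% of all genes. Without control vehicle replicate 1 there were also 5, against 5.14% of all genes.

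Other members overlapped between the control groups or lay on the other side of vehicle. Nr4a1, an orphan nuclear receptor, had 44.2, 38.1 and 26.1 CPM in control THC, against 41.5, 35.1 and 41.2 CPM in control vehicle, with overlapping groups. Dusp1, the phosphatase that switches off p38 and JNK, had 23.5, 12.9 and 11.2 CPM in control THC, against 16.6, 11.3 and 15.3 CPM in control vehicle, and the highest and the lowest of these 6 values were both THC libraries. Homer1 had 174, 160.0 and 139 CPM in control THC, against 156, 158 and 188 CPM in control vehicle. Jun, the main partner of Fos in AP-1, was on the other side of its vehicle group, with 91.4, 93.2 and 109 CPM in control THC, against 84.2, 85.7 and 82.2 CPM in control vehicle, and did not overlap it.

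Both members that were higher at an unadjusted p under 0.05 had their highest value in the same library. Atf3, a factor induced by stress and injury, had 5.02, 1.83 and 2.80 CPM in control THC, against 1.76, 1.42 and 1.32 CPM in control vehicle, a log2 fold change of 1.09 ± 0.33 (SE, adjusted p = 0.70 by edgeR). Klf4, a zinc finger factor abundant in vessel walls and named here after its values were seen, had 10.8, 4.15 and 4.46 CPM in control THC, against 2.47, 2.90 and 3.28 CPM in control vehicle, a log2 fold change of 1.16 ± 0.35 (SE, adjusted p = 0.70 by edgeR). For both genes every control THC library lay above every control vehicle library. Without control THC replicate 1 the log2 fold change became 0.62 ± 0.26 for Atf3 (SE, unadjusted p = 0.0385, adjusted p = 0.591 by edgeR). For Klf4 it became 0.58 ± 0.23 (SE, unadjusted p = 0.0333, adjusted p = 0.581 by edgeR). In that setting 8.24% of all genes reached an unadjusted p under 0.05. Control THC replicate 1 was the highest of the 12 for 7 members, Ier2, Btg2, Dusp1, Klf4, Atf3, Maff and Csrnp1, and for 4.63% of all genes.

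**Figure D2:**
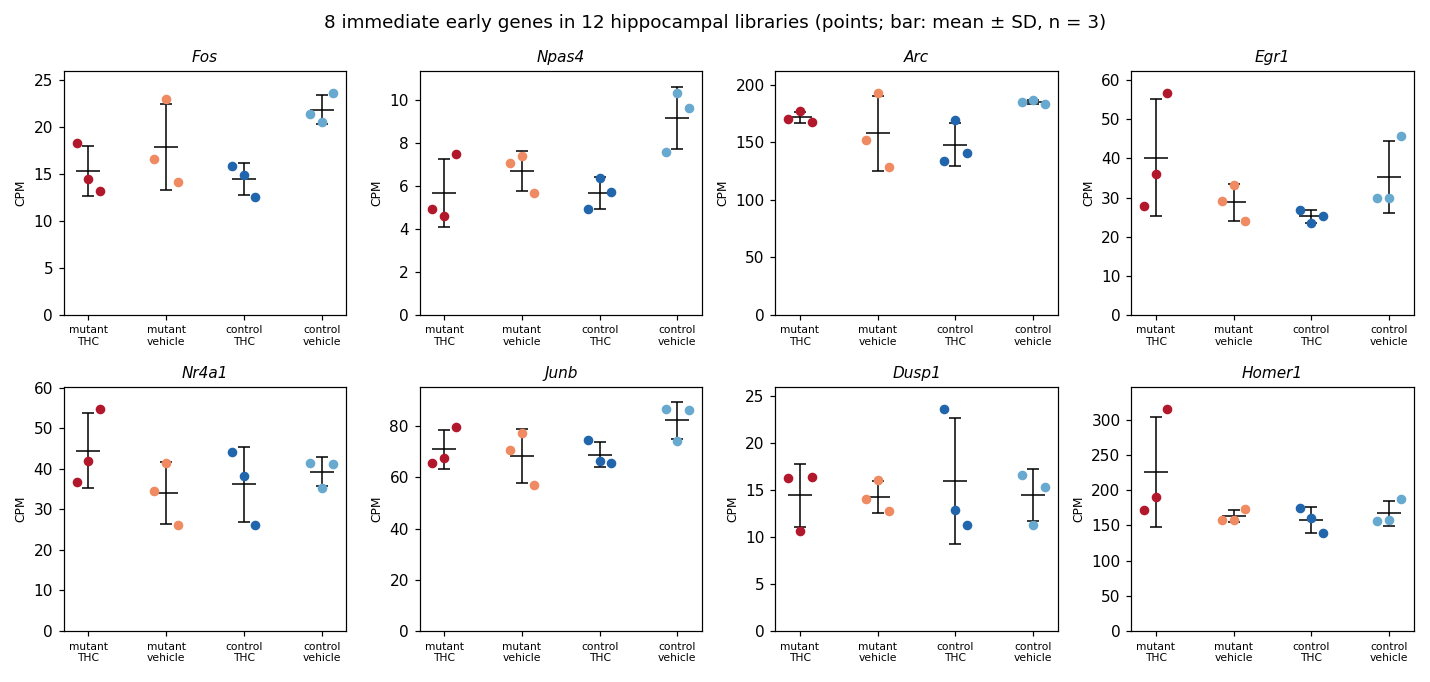
CPM of Fos, Npas4, Arc, Egr1, Nr4a1, Junb, Dusp1 and Homer1, with 1 point per library and bars for the mean ± SD of 3 libraries per group. The control vehicle libraries of Fos, Npas4 and Arc lie above all 3 control THC libraries, and the Homer1 point at 315 CPM is mutant THC replicate 3.

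THC against vehicle in mutant mice placed 2 members at an unadjusted p under 0.05, both higher under THC (2.53% of all genes) and none lower (3.2% of all genes), against 5.73% of all genes in all. DESeq2 gave 2 and limma-voom 1, again with 0 at an adjusted p of 0.05. Groups did not overlap for 1 member, Klf10, which was higher under THC (4.07% of all genes), and for no member that was lower (4.39%). Fitted log2 fold changes were below 0 for 15 of the 35, against 52.5% of all genes, with a median of 0.03 against -0.01 over all genes.

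Klf10, a factor induced by TGF-beta, had 37.5, 46.4 and 37.5 CPM in mutant THC, against 34.99, 35.5 and 31.7 CPM in mutant vehicle, a log2 fold change of 0.25 ± 0.10 (SE, adjusted p = 0.806 by edgeR), which was 0.14 ± 0.09 without mutant THC replicate 2. Homer1 had 171, 189.7 and 315 CPM in mutant THC, against 158, 158 and 173 CPM in mutant vehicle, a log2 fold change of 0.47 ± 0.19 (SE, adjusted p = 0.806 by edgeR). The difference in Homer1 rested on the library with striatal markers and was 0.15 ± 0.11 (SE) without it. Egr3, of the same family as Egr1, had 8.56, 12.5 and 13.7 CPM in mutant THC, against 10.3, 9.43 and 7.89 CPM in mutant vehicle, with overlapping groups and a log2 fold change of 0.33 ± 0.16 (SE, adjusted p = 0.806 by edgeR). Without mutant THC replicate 3 it was 0.19 ± 0.16 (SE).

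For Fos, Npas4 and Arc the THC and vehicle groups overlapped in mutant mice. Fos had 18.3, 14.5 and 13.2 CPM in mutant THC, against 16.5, 23.0 and 14.2 CPM in mutant vehicle, with a log2 fold change of -0.22 ± 0.18 (SE, adjusted p = 0.839 by edgeR). Npas4 had 4.90, 4.60 and 7.48 CPM in mutant THC, against 7.03, 7.37 and 5.66 CPM in mutant vehicle, where the highest value of all 6 was a THC library. Arc had 171, 177 and 167 CPM in mutant THC, against 152, 193.0 and 128 CPM in mutant vehicle, so that the vehicle libraries enclosed the THC libraries. Dusp1 had 16.2, 10.6 and 16.4 CPM in mutant THC, against 14.0, 16.02 and 12.7 CPM in mutant vehicle, and Nr4a1 had 36.8, 41.9 and 54.7 CPM, against 34.5, 41.4 and 26.1 CPM. The count of 2 members became 8 without mutant THC replicate 1 (14.5% of all genes), 5 without mutant THC replicate 2 (7.8%) and 0 without mutant vehicle replicate 3 (4.2%).

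Mutant THC replicate 3, the library with 4709 CPM of striatal markers, was often the highest or the lowest library, among all genes as among the members. It was the highest of the 12 libraries for 7 members, all 4 EGR genes, Nr4a1, Homer1 and Rgs2, and for 15.9% of all genes. It was the lowest for 6, Jun, Ier2, Btg2, Dusp5, Trib1 and Csrnp1, and for 18.6% of all genes. Egr2, a zinc finger factor that in nerve drives myelination and was named here after its values were seen, had 3.00, 2.47 and 10.5 CPM in mutant THC, against 3.07, 3.32 and 3.07 CPM in mutant vehicle, and the 10.5 CPM belongs to that library. Rgs2, a brake on G protein signalling also named after its values were seen, had 48.8, 55.2 and 112 CPM in mutant THC, against 46.4, 52.9 and 58.5 CPM in mutant vehicle. The log2 fold change for THC in mutants was -0.20 without that library and 0.76 with it for Egr2, -0.02 and 0.45 for Rgs2, and 0.15 and 0.48 for Egr1. The part of the striatal cells in these values was not tested beyond leaving the library out.

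**Figure D3:**
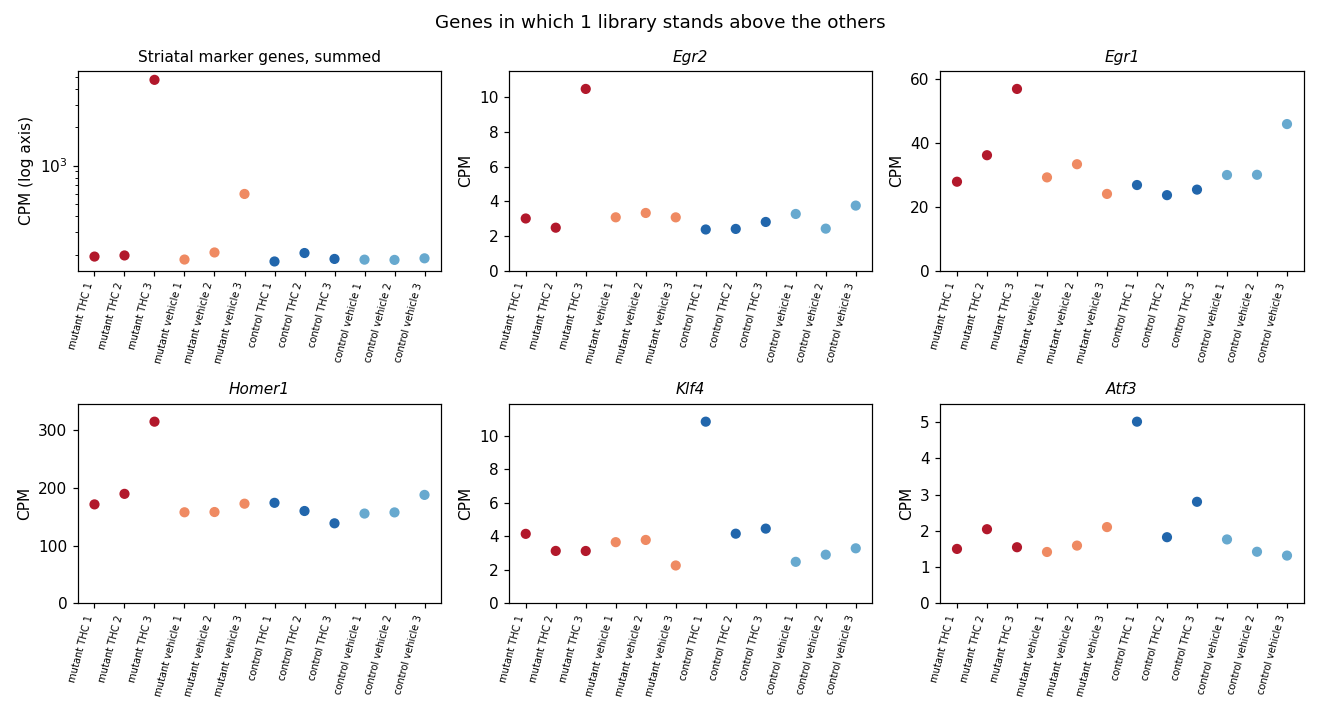
CPM in each of the 12 libraries for the summed striatal markers (log axis) and for Egr2, Egr1, Homer1, Klf4 and Atf3 (linear axes from 0), coloured by group. Mutant THC replicate 3 stands above the rest in the first 4 panels, and control THC replicate 1 in the Klf4 and Atf3 panels.

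Between mutant and control mice under vehicle, 5 members reached an unadjusted p under 0.05, all lower in mutants (6.63% of all genes) and none higher (11.2% of all genes). Over all genes 17.8% did so in this comparison, so 5 of 35 was not above the background. DESeq2 gave 6 and limma-voom 5, with 0 at an adjusted p of 0.05. Groups did not overlap for 6 members, all lower in mutants (12.8% of all genes), Ier5, Klf10, Egr3, Npas4, Dusp6 and Jun, and for no member that was higher (15.2%). Fitted log2 fold changes were below 0 for 25 of the 35, against 51.1% of all genes, with a median of -0.16 against -0.01 over all genes. Choroid plexus markers stood at 6129 CPM or more in every mutant vehicle library and at 406.9 CPM or less in every control vehicle library, with no overlap. Oligodendrocyte markers summed to 6294 to 7116 CPM in mutant vehicle, against 4535 to 5774 CPM in control vehicle, blood markers to 469.4 to 829.3 CPM, against 322.5 to 455.2 CPM, and astrocyte markers to 5142 to 5511 CPM, against 5577 to 5650 CPM, also with no overlap, and their part in the members' values was not tested. With the log2 CPM of the choroid plexus gene Ttr as a covariate, a model added after the data were seen, 2 members reached an unadjusted p under 0.05, Npas4 at -0.70 ± 0.28 and Ier5 at -0.32 ± 0.14 (log2 fold change ± SE), against 4.16% of all genes, and Klf10 was at -0.05 ± 0.12. Ttr itself was at 3638 to 9977 CPM in mutant vehicle and 20.1 to 84.4 CPM in control vehicle. Ttr and genotype can therefore hardly be told apart under vehicle, and the model cannot show which differences are free of choroid plexus.

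Ier5 had 54.5, 61.99 and 49.4 CPM in mutant vehicle, against 66.9, 67.6 and 64.1 CPM in control vehicle, a log2 fold change of -0.26 ± 0.10 (SE, unadjusted p = 0.0200, adjusted p = 0.203 by edgeR). Klf10 had 34.99, 35.5 and 31.7 CPM in mutant vehicle, against 44.8, 37.2 and 39.4 CPM in control vehicle, and its log2 fold change was -0.25 ± 0.10 (SE, adjusted p = 0.222 by edgeR). Egr3 had 10.3, 9.43 and 7.89 CPM in mutant vehicle, against 11.2, 12.6 and 11.97 CPM in control vehicle, a log2 fold change of -0.37 ± 0.16 (SE, adjusted p = 0.253 by edgeR). For all 3 genes every mutant library was below every control library. Npas4 had 7.03, 7.37 and 5.66 CPM in mutant vehicle, against 7.56, 10.3 and 9.61 CPM in control vehicle, a log2 fold change of -0.45 ± 0.20 (SE, adjusted p = 0.263 by edgeR) with a narrow gap between the groups. Fos had 16.5, 23.0 and 14.2 CPM in mutant vehicle, against 21.4, 20.5 and 23.6 CPM in control vehicle, and its groups overlapped, with a log2 fold change of -0.29 ± 0.18 (SE, adjusted p = 0.406 by edgeR). Junb was at 70.5, 77.5 and 57.0 CPM in mutant vehicle, against 86.6, 74.0 and 86.2 CPM in control vehicle, and Arc at 152, 193.0 and 128 CPM, against 185, 187 and 183.0 CPM, both with overlap.

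Mutant vehicle replicate 3, the second library with striatal markers, was the lowest of the 12 for 11 members, among them Junb, Arc, Egr3, Nr4a1 and Klf10, and for 13.5% of all genes. Without it 0 members reached an unadjusted p under 0.05, against 9.02% of all genes, and the median of the members was -0.09. Npas4 was then at -0.35 ± 0.22 and Ier5 at -0.19 ± 0.10 (log2 fold change ± SE). Without both libraries with striatal markers Npas4 and Ier5 were the 2 members at an unadjusted p under 0.05, against 10.3% of all genes. Without control vehicle replicate 3, the highest library for Fos, Fosb, Fosl2, Nr4a2, Nr4a3, Dusp6 and Klf6, they were Klf10 and Ier5, against 12.2% of all genes, with a median of -0.11. The count was 3 without control THC replicate 3 (17.3% of all genes), control vehicle replicate 1 (17.1%) or mutant vehicle replicate 1 (18.8%).

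The comparison of THC with vehicle in control mice and that of mutants with controls under vehicle share the 3 control vehicle libraries, so their values are set side by side only. Their log2 fold changes were -0.60 for THC and -0.29 for the mutation in Fos, -0.69 and -0.45 in Npas4, -0.28 and -0.26 in Ier5, -0.26 and -0.27 in Junb, and -0.32 and -0.23 in Arc. Not all members had both values below 0. In the same order, Klf10 was at 0.07 and -0.25, Egr3 at 0.01 and -0.37, and Jun at 0.22 and -0.20. For Fos, Npas4 and Ier5 the control vehicle mean was the highest of the 4 groups. The same was true of other members, among them Arc, Junb, Jund, Fosl2, Nr4a2, Dusp6, Klf6 and Pim1. Fos averaged 15.3 ± 2.67 CPM in mutant THC, 17.9 ± 4.57 CPM in mutant vehicle, 14.5 ± 1.68 CPM in control THC and 21.9 ± 1.59 CPM in control vehicle (SD, n = 3 each). Npas4 averaged 5.66 ± 1.59 CPM in mutant THC, 6.69 ± 0.91 CPM in mutant vehicle, 5.66 ± 0.732 CPM in control THC and 9.16 ± 1.43 CPM in control vehicle. The order of the other 3 groups was within their spread for both genes.

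Under THC, mutants and controls differed at an unadjusted p under 0.05 for 8 members, against 8.98% of all genes, 4 higher in mutants (4.71% of all genes) and 4 lower (4.27% of all genes). DESeq2 gave 8 and limma-voom 5, with 0 at an adjusted p of 0.05. Groups did not overlap for Egr1, which was higher in mutants (4.83% of all genes), and for Jun and Klf4, which were lower (5.7% of all genes). Fitted log2 fold changes were below 0 for 17 of the 35, against 48.5% of all genes, with a median of 0.00 against 0.01 over all genes. The 8 microglia markers summed to 459.2 to 495.2 CPM in mutant THC, against 412.3 to 448.2 CPM in control THC, with no overlap. Choroid plexus markers varied within both groups, at 10448, 330.0 and 4973 CPM in mutant THC and 339.2, 8881 and 330.0 CPM in control THC. The part of either list in the members' values was not tested.

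Jun had 69.2, 87.8 and 52.5 CPM in mutant THC, against 91.4, 93.2 and 109 CPM in control THC, a log2 fold change of -0.49 ± 0.15 (SE, unadjusted p = 0.0066, adjusted p = 0.552 by edgeR). It was -0.32 ± 0.10 (SE) without mutant THC replicate 3. Averaged over treatments, Jun was at -0.34 ± 0.10 (SE, adjusted p = 0.162 by edgeR), with 0.00633% of all genes past an adjusted p of 0.05. DESeq2 gave Jun an adjusted p of 0.0369, with 785 genes past an adjusted p of 0.05. With the Ttr covariate, the averaged difference of Jun was -0.16. Egr1 had 27.8, 36.0 and 56.7 CPM in mutant THC, against 26.7, 23.6 and 25.3 CPM in control THC, a log2 fold change of 0.67 ± 0.25 (SE, adjusted p = 0.552 by edgeR). Every mutant library was above every control library, and the log2 fold change without mutant THC replicate 3 was 0.34 ± 0.20 (SE). Atf3 had 1.502, 2.05 and 1.55 CPM in mutant THC, against 5.02, 1.83 and 2.80 CPM in control THC, a log2 fold change of -0.92 ± 0.32 (SE, adjusted p = 0.552 by edgeR). It was -0.44 ± 0.26 (SE) without control THC replicate 1, and for Klf4 -0.31 in place of -0.90. Homer1, Egr2 and Rgs2 were higher in mutants at 0.52, 1.08 and 0.60, and without mutant THC replicate 3 at 0.20, 0.12 and 0.14 on the log2 scale. Without that library 2 members, Jun and Atf3, remained at an unadjusted p under 0.05, against 3.52% of all genes, and 4 members did so without control THC replicate 1 (7.66%) or without control THC replicate 3 (4.33%).

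**Figure D4:**
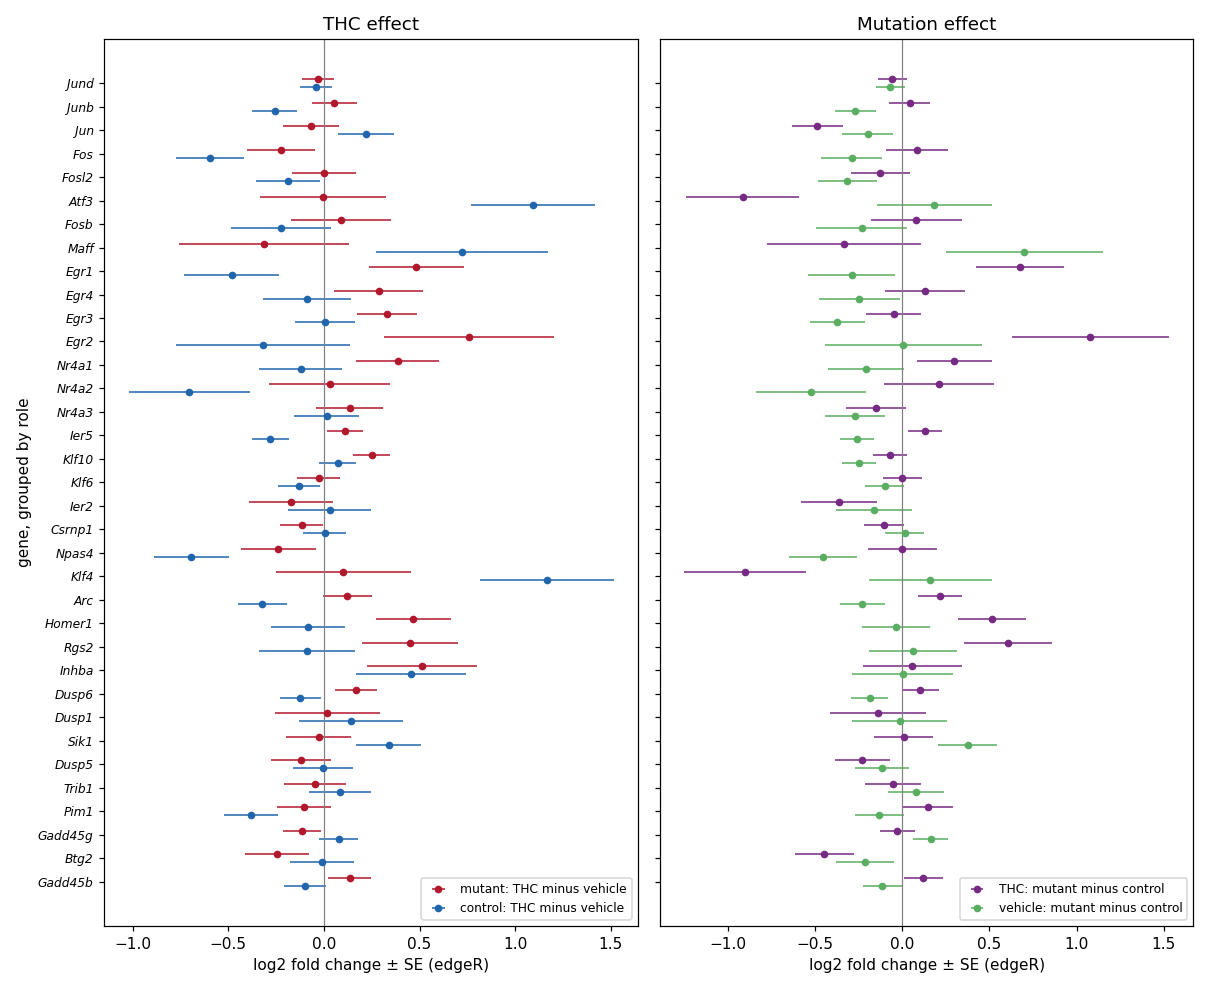
Log2 fold change ± SE from edgeR for each of the 35 genes, grouped by role. The left panel gives THC minus vehicle in mutant and in control mice, and the right panel mutant minus control under THC and under vehicle. Fos, Npas4, Arc and Ier5 lie left of 0 for THC in control mice, and Atf3 and Klf4 lie farthest right.

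The interaction asks whether the difference made by THC in mutants differs from that in controls. It placed 4 members at an unadjusted p under 0.05, against 6.59% of all genes, 3 above 0 (2.16% of all genes) and 1 below (4.42% of all genes). DESeq2 gave 6 and limma-voom 3, with 0 at an adjusted p of 0.05. The fitted value was below 0 for 12 of the 35 members, against 48.7% of all genes, and the median was 0.19 against 0.00 over all genes. Above 0 were Ier5 at 0.39 ± 0.14 (log2 ± SE, unadjusted p = 0.0149, adjusted p = 0.700 by edgeR), Egr1 at 0.97 ± 0.35 (adjusted p = 0.711, and 0.63 ± 0.27 without mutant THC replicate 3) and Arc at 0.45 ± 0.18 (adjusted p = 0.733). For each of these the control THC mean was the lowest of the 4 groups, and for Ier5 and Arc the control vehicle mean was the highest. Ier5 averaged 59.7 ± 5.76 CPM in mutant THC, 55.3 ± 6.33 CPM in mutant vehicle, 54.5 ± 4.65 CPM in control THC and 66.2 ± 1.89 CPM in control vehicle (SD). Arc averaged 172 ± 5.01 CPM in mutant THC, 158 ± 32.7 CPM in mutant vehicle, 148 ± 18.7 CPM in control THC and 185 ± 1.94 CPM in control vehicle (SD, n = 3 each). Atf3 was the member below 0, at -1.10 ± 0.46 (SE, adjusted p = 0.736 by edgeR), and at -0.63 without control THC replicate 1. Without both libraries with striatal markers 0 members reached an unadjusted p under 0.05, against 3.59% of all genes, and the median was 0.09. The count of 4 became 2 without control vehicle replicate 3 (4.42% of all genes), where the median was 0.10, and 8 without mutant THC replicate 1 (11.5%).

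Averaged over genotypes, THC gave 7 members at an unadjusted p under 0.05, against 6.05% of all genes, 4 higher (2.96%) and 3 lower (3.09%). The lower 3 were Npas4 at -0.47 ± 0.14, Fos at -0.41 ± 0.12 and Pim1 at -0.24 ± 0.10 (log2 fold change ± SE, adjusted p = 0.786 by edgeR for each), and the higher 4 were Klf4, Inhba, Klf10 and Atf3. The count was 3 without control vehicle replicate 2 or mutant THC replicate 2, and 4 without control THC replicate 1 or 3, control vehicle replicate 1 or 3, or mutant vehicle replicate 2 or 3, against 3.94% to 6.91% of all genes. Averaged over treatments, the mutation gave 3 members, all lower in mutants (9.01% of all genes), against 21.2% of all genes in all: Jun, Btg2 and Klf10. Fitted values were below 0 for 23 of the 35, against 49.3% of all genes. For THC averaged over genotypes they were below 0 for 16, against 50.8% of all genes. Btg2, an antiproliferative gene, stood at -0.33 ± 0.12 (SE, adjusted p = 0.175 by edgeR). The count of 3 became 6 without mutant THC replicate 2 (30.4% of all genes) and 0 with the Ttr covariate (3.09%).

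In the families not yet described, none of the 3 NR4A genes reached an unadjusted p under 0.05 except Nr4a2 for THC in control mice, where it had 36.8, 29.8 and 16.5 CPM in control THC, against 47.5, 30.6 and 57.4 CPM in control vehicle. This value was -0.70 ± 0.32 (log2 fold change ± SE) and -0.44 ± 0.29 without control THC replicate 3. Gadd45b and Gadd45g, which act in DNA repair and demethylation, varied 1.36-fold and 1.27-fold over the 12 libraries and reached that mark in none of the comparisons. Among the phosphatases of the MAP kinases, Dusp1, Dusp5 and Dusp6 also did not reach it in any of them. Sik1, a kinase that restrains CREB coactivators, had 19.1, 13.3 and 16 CPM in mutant THC, 12.9, 20.1 and 16.3 CPM in mutant vehicle, 15.7, 18.0 and 14.4 CPM in control THC and 11.4, 13.2 and 13.6 CPM in control vehicle. Its control vehicle libraries were all below its control THC libraries.

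Across the 12 libraries the members did not all move with Fos. Log2 CPM of Fos correlated with that of Arc at r = 0.678 (Spearman rho = 0.741), of Junb at r = 0.625 (rho = 0.552) and of Npas4 at r = 0.592 (rho = 0.51), with permutation p-values adjusted over 8 pairs of 0.121 for each r, and of 0.0626 for Arc and 0.244 for Junb and for Npas4 for rho. For Dusp1, Nr4a1 and Egr1 r was 0.264, 0.239 and 0.163, and for Egr2 and Homer1 -0.148 and -0.262, with no adjusted permutation p under 0.05. Without the 2 libraries farthest from the median of Fos, control vehicle replicate 3 and mutant vehicle replicate 2, r was 0.571 for Arc, 0.472 for Junb, 0.449 for Npas4 and -0.16 for Egr1. After the group means were taken out r was 0.637 for Arc and -0.03 for Npas4. Without the 2 libraries with striatal markers r was 0.723 for Arc, 0.799 for Junb, 0.696 for Npas4, 0.60 for Egr1, 0.643 for Egr2 and 0.237 for Homer1.

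Other genes of the pathway came from 2 lists. Of 31 symbols of upstream regulators, the kinases, coactivators and factors that act on these promoters, 30 were tested and 0 passed an adjusted p of 0.05 in any comparison. The symbol not found, Mkl1, is an older name of Mrtfa, which was also listed and was tested. At an unadjusted p under 0.05, 1 was lower for THC in mutants (5.73% of all genes in either direction), 2 were higher and 1 lower for THC in controls (7%), 1 was higher and 2 lower in mutants under THC (8.98%), and 3 were lower in mutants under vehicle (17.8%). Mapk3, the kinase ERK1, had 81.8, 83.7 and 101.9 CPM in control THC, against 68.2, 62.02 and 68.1 CPM in control vehicle, a log2 fold change of 0.43 ± 0.13 (SE, adjusted p = 0.70 by edgeR) with no overlap. Mef2c, a factor that limits synapse number, had 188, 194 and 189 CPM in mutant vehicle, against 240.1, 219.7 and 243 CPM in control vehicle, a log2 fold change of -0.30 ± 0.07 (SE, adjusted p = 0.156 by edgeR), also with no overlap. Their medians over the list were 0.01 for THC in controls and -0.08 for the mutation under vehicle, against 0.00 and -0.01 over all genes.

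Of 43 symbols of other genes known to be induced by activity, 41 were tested and 0 passed an adjusted p of 0.05. Of the rest, Cyr61 is an older name of Ccn1, which was also listed, and Fosl1 was below the filter on low counts. At an unadjusted p under 0.05, 2 were higher for THC in mutants (5.73% of all genes in either direction), 3 higher and 2 lower for THC in controls (7%), 2 higher and 1 lower in mutants under THC (8.98%), and 2 higher and 1 lower in mutants under vehicle (17.8%). For THC in controls the lower 2 were Vgf and Pcsk1, a neuropeptide precursor and the protease that cuts such precursors. Vgf had 61.4, 56.3 and 36.1 CPM in control THC, against 68.4, 83.05 and 68.8 CPM in control vehicle, a log2 fold change of -0.52 ± 0.23 (SE, adjusted p = 0.701 by edgeR), and its groups did not overlap. Pcsk1 had 20.7, 15.4 and 12.03 CPM in control THC, against 25.0, 19.1 and 29.4 CPM in control vehicle, with overlap and a log2 fold change of -0.61 ± 0.26 (SE, adjusted p = 0.701 by edgeR). The higher 3 were Zfp36, Errfi1 and Mcl1, and none of them overlapped between these groups. Zfp36, which speeds the decay of inflammatory messenger RNAs, had 4.63, 2.04 and 2.02 CPM in control THC, against 1.37, 1.42 and 1.37 CPM in control vehicle, and like Klf4 and Atf3 it was highest in control THC replicate 1. Its log2 fold change was 1.06 ± 0.31 (SE, adjusted p = 0.70 by edgeR). Errfi1 had 69.5, 60.9 and 73.4 CPM in control THC, against 56.9, 59.5 and 57.7 CPM in control vehicle (0.23 ± 0.07, log2 fold change ± SE). Mcl1 had 82.5, 86.6 and 87.4 CPM, against 79.8, 76.1 and 75.3 CPM (0.15 ± 0.06). The median of the list was 0.05 for THC in controls and 0.03 for THC in mutants, against 0.00 and -0.01 over all genes.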

How the data were processed

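Hippocampal RNA of 12 mouse libraries was analysed from 1 table of expected counts per gene. The authors deposited these expected counts unscaled, and per the file headers they are RSEM estimates over RefSeq transcripts. Per the submitters' processing notes, the build was mm10 and the tools included RSEM 1.2.21, Bowtie2 2.2.2, CASAVA 1.8.4, FastQC and edgeR 3.10.2. Per library 27.2% to 29.4% of values were not whole, since RSEM shares ambiguous reads; the sources used here do not give the strand setting of the counting. RefSeq GRCm38.p6 named 23018 of 23382 rows and GENCODE M21 named 129 more; 235 rows stayed unnamed, with 0.727% of the counts.

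Counts were rounded, filtered with filterByExpr (15802 genes kept) and scaled with TMM, and CPM carry this scaling. Tests were edgeR 4.0.16 quasi-likelihood F tests (robust, R 4.3.3) on 4 group means over 12 libraries with 8 residual degrees of freedom, Benjamini-Hochberg adjusted over all genes at 0.05. SE is the fold change divided by the root of F. Log2 CPM used a prior count of 2; correlations used permutation tests. The method was tested on simulated data. Alternatives were DESeq2 1.42.0, limma-voom (limma 3.58.1), upper-quartile scaling, no filter, each library left out, both libraries with striatal markers left out, only the groups compared and, added after seeing the data, the log2 CPM of Ttr as covariate.

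The members and lists were chosen with earlier results of these data known. Values per library are given for Fos, Arc, Npas4, Egr1, Nr4a1, Junb, Dusp1, Homer1 and the 3 members with the smallest unadjusted p in each of the 5 comparisons that are not averages, other genes being named after their values were seen. The labels do not say that the 3 libraries of a group came from separate mice, so p-values measure the spread between libraries, which may be technical. Replicate numbers follow the order of deposit.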

Additional observations from a re-analysis of the deposited data

How the results depend on the processing

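No paired analysis was possible because replicate numbers follow the order of deposit and the numbers in the titles do not recur between groups. With 3 libraries per group, small differences of low members such as Maff are limited by depth and by spread. Of 29 differences of single members at an unadjusted p under 0.05 or among the 3 smallest in the 5 comparisons that are not averages, 0 turned direction in the 18 or 19 alternatives run for each, and the smallest adjusted p among them was 0.088, for Jun under THC without mutant THC replicate 2. For the mutation averaged, Jun had an adjusted p of 0.0381 by edgeR without that library. In that setting 934 genes passed an adjusted p of 0.05, and 30.4% of all genes reached an unadjusted p under 0.05. Mutant THC replicate 2 held 330.0 CPM of choroid plexus markers, against 4973 to 16893 CPM in the other mutant libraries. The part of choroid plexus in this value was not tested. Those 29 were picked by their p in these same data, and the alternatives share most libraries. A kept direction was therefore likely beforehand and does not measure stability. Their sizes did move: Egr2 for the mutation under THC ran from 0.11 to 1.42, and Klf10 for the mutation under vehicle from -0.31 to -0.05. Egr2 and Rgs2 for THC in mutants, outside those 29, did turn without mutant THC replicate 3. The counts of all genes past an adjusted p of 0.05 depended on the tool: DESeq2 gave 3 for THC in mutants, 12 for THC in controls, 7 for the mutation under THC, 788 for the mutation under vehicle, 34 for the interaction, 3 for THC averaged and 785 for the mutation averaged, with 1 member, Jun, in the last. Limma-voom and leaving out both libraries with striatal markers gave 0 for the mutation under THC and 0 under vehicle, where edgeR gave 1 each. Fitting only the groups compared gave 0 under THC and 538 under vehicle, and the Ttr covariate gave 0 under vehicle. With 1 library left out in turn the counts ran from 0 to 3 for THC in mutants, 0 to 10 for the interaction, 1 to 934 for the mutation averaged, 0 to 2 for it under THC and 0 to 6 under vehicle, members past the threshold from 0 to 1 for the mutation averaged (Jun, without mutant THC replicate 2), and the median of the members for THC in mutants from -0.0243 to 0.142. The correlation of Fos with Egr1 became -0.16 without the 2 farthest libraries, and that with Npas4 -0.0325 with group means taken out. The cause was not tested.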
